A study of Mus musculus with 19 samples.

Results

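The hotspots described here are those near the distal end of mouse autosomes, that is, the end away from the centromere. On each of 17 autosomes (chromosomes 1 to 16 and 18), a hotspot was a member when its center lay within 10 Mb of the last hotspot listed for that chromosome in any of 5 hotspot tables. The rule found 6087 entries among 66344 on these chromosomes and 74327 in all tables: 1670 in B6/SPRT, 1432 in Hum/SPRT, 818 in CAST/SPRT, 1356 in STUS/B6 and 811 in STUS/Hum. They fell on 3828 distinct positions, of which 54.6% were called in 1 library, 32.4% in 2 and 12.6% in 3. The last hotspot stands in for the end of the chromosome, so any sequence beyond it was not counted.

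The animals were male F1 hybrids analysed by DMC1 single-stranded DNA sequencing of the testis, with 1 library per genotype. Every hybrid had a C57BL/6J (B6) genome from 1 parent. In B6/SPRT, Hum/SPRT and CAST/SPRT the other genome was that of SPRET/EiJ (SPRT), a strain of Mus spretus, and in STUS/B6 and STUS/Hum it was that of STUS/Jpia (STUS), a strain of M. m. musculus. The Prdm9 gene on the B6 side was the wild-type B6 allele (B6/SPRT and STUS/B6), a humanized allele carrying the zinc fingers of the human B allele (Hum/SPRT and STUS/Hum), or an allele carrying a castaneus zinc finger array (CAST/SPRT). The SPRT or STUS allele was present beside it in every animal. H3K4me3 values existed for the 3 SPRT genotypes, as 1 pooled value per hotspot.

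PRDM9 is the meiotic histone methyltransferase that binds DNA through its zinc fingers and places H3K4me3 around the sites where SPO11 then makes double-strand breaks. DMC1, the meiotic recombinase, coats the resected ends of these breaks. In a hybrid, a PRDM9 allele can bind a site on both homologs or mostly on 1 of them, because binding sites are lost over time on the genome in which that allele has acted. A hotspot with 25 to 75% of its DMC1 reads from the B6 chromosome is called matched here, and all others one-sided. Male meiosis of the mouse is also known for high crossover rates towards the distal ends, and the distal ends of chromosomes 4, 9 and 13 are known to carry clusters of a minisatellite shared with the pseudoautosomal region.

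Hotspots were denser in the distal 10 Mb in all 5 libraries. B6/SPRT had 9.82 hotspots per Mb distally and 7.51 on the rest of the same chromosomes, a ratio of 1.31 (95% exact interval 1.24 to 1.38). The ratio was 1.33 (1.26 to 1.40) in Hum/SPRT, from 8.42 and 6.34 per Mb, and 1.23 (1.14 to 1.32) in CAST/SPRT, from 4.81 and 3.93 per Mb. It was 1.12 (1.06 to 1.18) in STUS/B6, from 7.98 and 7.12 per Mb, and 1.16 (1.08 to 1.25) in STUS/Hum, from 4.77 and 4.11 per Mb. The mean log2 ratio was 0.29 ± 0.11 (SD, n = 5 libraries; exact 2-sided sign-flip permutation test, p = 0.062, adjusted over 7 measures 0.0875). With 5 libraries 0.062 (rounded) is the smallest p this test can give, so it cannot pass 0.05 for any measure here. The libraries also share alleles and strains and are not independent, and all intervals cover counting error only.

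Taking the alleles separately, the humanized allele had 1.58 times as many hotspots per Mb distally in Hum/SPRT (1.43 to 1.73) and 1.33 times as many in STUS/Hum (1.20 to 1.47). The castaneus array had 1.32 times as many (1.17 to 1.48). The B6 allele had 1.26 times as many in B6/SPRT (1.13 to 1.41) and 1.10 times as many in STUS/B6 (1.001 to 1.21). The SPRT allele stood at 1.20, 1.21 and 1.12 in its hybrids with the B6, humanized and castaneus alleles, with intervals that all lay above 1. The STUS allele stood at 1.05 in STUS/B6 (0.965 to 1.13) and 0.912 in STUS/Hum (0.797 to 1.04), both intervals including 1. Hotspots without an assigned allele stood at 1.53 (1.40 to 1.68) in B6/SPRT, 1.34 (1.14 to 1.57) in Hum/SPRT and 1.50 (1.20 to 1.86) in CAST/SPRT. In the STUS hybrids they stood at 1.45 (1.26 to 1.67) in STUS/B6 and 1.27 (1.06 to 1.52) in STUS/Hum. Their ratio was above that of either assigned allele in B6/SPRT, CAST/SPRT and STUS/B6.

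The excess became smaller over the first 15 Mb in the SPRT hybrids. Over bins of 5 Mb, the density of B6/SPRT relative to the rest was 1.37 in the last bin, 1.25 in the next and 1.15 in the third, and Hum/SPRT went from 1.39 to 1.26 to 1.21 and CAST/SPRT from 1.24 to 1.21 to 1.07. B6/SPRT was again at 1.24 from 20 to 25 Mb. The last megabase was sparser than the next in these hybrids, with 8.88 and 10.7 hotspots per Mb in B6/SPRT, 6.88 and 8.94 in Hum/SPRT. The values were 3.47 and 5.47 for CAST/SPRT, beside 3.93 on its rest. In the STUS hybrids the last 5 Mb did not stand out: STUS/B6 had 1.04 there and 1.20 in the next bin, and STUS/Hum 0.992 and 1.33. Within the last 2 Mb of all 17 chromosomes STUS/Hum had 2.88 and 2.94 hotspots per Mb in its 2 megabases, below its 4.86 per Mb at 2 to 5 Mb. Hotspots just inside the 10 Mb limit (9 to 10 Mb) numbered 152, 107, 71, 118 and 71 in B6/SPRT, Hum/SPRT, CAST/SPRT, STUS/B6 and STUS/Hum, and those just outside (10 to 11 Mb) 148, 143, 73, 150 and 100.

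**Figure D1:**
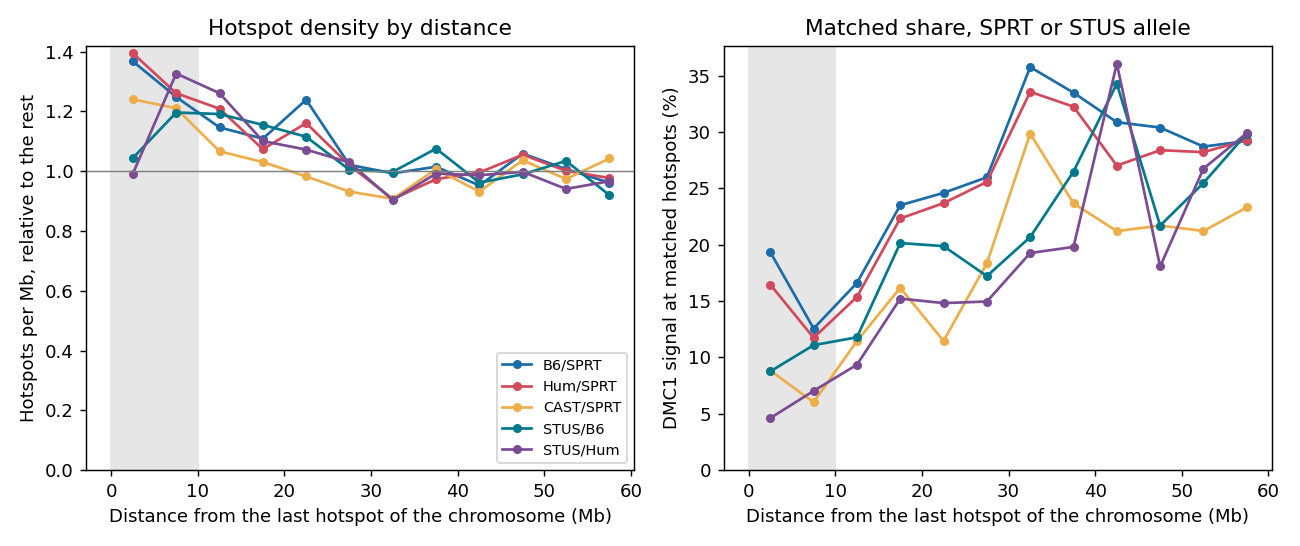
Left, hotspots per Mb in bins of 5 Mb divided by the density outside the distal 10 Mb, against distance from the last hotspot of the chromosome in Mb. Right, percent of the DMC1 signal of SPRT or STUS hotspots that lay at matched positions in the same bins. Lines are the 5 libraries and the grey band is the distal 10 Mb. In each library the bin with the highest density and the bin with the lowest matched share lie within the band, and the matched share is 4.63 to 19.3% in the bins inside it.

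DMC1 signal per hotspot, the value of the authors' caller, differed little. Its median was 54.5 distally and 54.5 elsewhere in B6/SPRT, 42.6 and 42.7 in Hum/SPRT. It was 25.3 and 26.3 for CAST/SPRT, 42.0 and 47.1 for STUS/B6 and 32.2 and 34.0 in STUS/Hum. With the median of the rest taken as fixed, the interval of the ratio included 1 in all libraries but STUS/B6. There the ratio was 0.891 (0.825 to 0.982). That log2 ratio of -0.17 was -0.01 with means in place of medians and -0.01 among the 5000 strongest hotspots. The mean log2 ratio was -0.06 ± 0.07 (SD, n = 5; exact permutation p = 0.062, adjusted 0.0875). Summed signal per Mb was 1.07 to 1.29 times that of the rest, and the distal windows held 8.08 to 9.53% of the signal on 7.57% of the length.

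The allele that came with the non-B6 genome held a smaller share of distal hotspots. SPRT hotspots made up 46.5% distally and 50.5% elsewhere in B6/SPRT, 54.6% and 59.7% in Hum/SPRT, and 49.3% and 54.0% in CAST/SPRT. STUS hotspots made up 48.3% and 51.7% in STUS/B6 and 29.8% and 38.0% in STUS/Hum. The mean difference was -5.09 ± 1.82 percentage points (SD, n = 5; exact permutation p = 0.062, adjusted 0.0875), and it was negative in 14, 13, 13, 11 and 15 of the 17 chromosomes in these libraries. What took its place differed. The humanized allele had 32.8% against 27.7% in Hum/SPRT and 52.9% against 46.2% in STUS/Hum, and the castaneus array 38.6% against 35.8%. The B6 allele had 21.5% against 22.3% in B6/SPRT and 34.7% against 35.3% in STUS/B6, where hotspots without an assigned allele were more frequent instead (31.6% against 27.0%, and 16.4% against 12.7%). Such hotspots made up 11.9% against 9.68% in CAST/SPRT, 16.6% against 15.2% in STUS/Hum and 12.2% against 12.1% in Hum/SPRT. With assigned hotspots only, the SPRT or STUS share differed by -1.04 (B6/SPRT), -5.90 (Hum/SPRT), -4.06 (CAST/SPRT), -1.25 (STUS/B6) and -9.06 points (STUS/Hum).

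Distal breaks of the SPRT and STUS alleles were more one-sided. Matched positions carried 16.1% of the distal signal of SPRT hotspots in B6/SPRT (95% interval 12.9 to 20.02%, Wilson at the effective number of hotspots) and 27.3% elsewhere (25.9 to 28.7%). The shares were 14.2% (11.0 to 18.1%) and 26.4% (24.9 to 27.8%) in Hum/SPRT, and 7.47% (4.76 to 11.5%) and 19.4% (17.8 to 21.1%) in CAST/SPRT. For the STUS allele they were 10.2% (6.98 to 14.6%) and 22.5% (21.0 to 24.1%) in STUS/B6, and 6.01% (3.05 to 11.5%) and 21.0% (19.1 to 23.1%) in STUS/Hum. The distal and other intervals did not overlap in any library. The mean difference was -12.5 ± 1.47 percentage points (SD, n = 5; exact permutation p = 0.062, adjusted 0.0875). A smaller difference was present at the other chromosome end: in the 10 Mb after the first hotspot the share minus that of the rest, of which it is part, was -4.83, -3.53, -2.56, -4.59 and -2.83 points in B6/SPRT, Hum/SPRT, CAST/SPRT, STUS/B6 and STUS/Hum. The limit of 10 Mb was no boundary. Shares at 9 to 10 Mb and at 10 to 11 Mb were 22.8 and 8.89% in B6/SPRT, 11.4 and 10.01% in Hum/SPRT, 11.7 and 8.54% for CAST/SPRT, 12.7 and 13.5% for STUS/B6 and 7.68 and 12.6% for STUS/Hum. The distal difference was negative in 15 of 17 chromosomes in each SPRT hybrid, in 17 in STUS/B6 and in 16 in STUS/Hum.

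Counted as hotspots and not by signal, 142 of 644 distal SPRT hotspots with a B6 fraction were matched in B6/SPRT (22.0%, against 29.8% over all 17 chromosomes), 147 of 631 in Hum/SPRT (23.3%, against 31.1%) and 50 of 352 in CAST/SPRT (14.2%, against 22.4%). For STUS hotspots 163 of 618 were matched in STUS/B6 (26.4%, against 36.5%) and 31 of 229 in STUS/Hum (13.5%, against 31%). Among the one-sided hotspots the distal excess was on the B6 side: hotspots with over 75% of reads from B6 carried 77.5% of the distal signal of the SPRT allele in B6/SPRT and 66.3% elsewhere, while those with under 25% carried 6.38 and 6.43%. The median fraction of reads from B6 was 96.6% distally and 91.4% elsewhere in B6/SPRT, 92.6% and 86.6% in Hum/SPRT. It was 96.8% and 94.7% for CAST/SPRT, 95.0% and 80% for STUS/B6 and 91.4% and 86.4% in STUS/Hum. The mean difference of these medians was 6.66 ± 4.92 percentage points (SD, n = 5; exact permutation p = 0.062, adjusted 0.0875).

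The allele inherited with the B6 genome gave no single picture. For the B6 allele, matched positions carried 10.5% of the distal signal and 15.3% elsewhere in B6/SPRT, and 11.9% and 21.4% in STUS/B6. For the humanized allele the values were 33.8% and 49.5% in Hum/SPRT and 61.2% and 67.9% in STUS/Hum. The castaneus array had 61.8% distally and 60.1% elsewhere, a difference of 1.70 percentage points (-6.88 to 9.72). That difference was -3.36 with a window of 20 Mb and -3.16 with missing fractions counted as unmatched. It was 7.54 with a window of 5 Mb and 5.30 among the 5000 strongest hotspots. The interval of the difference also included 0 for the B6 allele in B6/SPRT (-10.2 to 3.76). Over the 5 libraries the mean was -6.98 ± 6.37 percentage points (SD, n = 5; exact permutation p = 0.125, adjusted 0.146). By number of hotspots, 40 of 199 B6 hotspots were matched in B6/SPRT (25.2% over all), 132 of 427 in STUS/B6 (38.2%), 127 of 340 humanized hotspots in Hum/SPRT (43.8%), 233 of 389 in STUS/Hum (64.1%) and 119 of 217 castaneus hotspots (54.5%). In the 10 Mb after the first hotspot the matched share of signal was also set against the rest, of which it is part. There the difference was -11.0 (B6/SPRT), -0.32 (Hum/SPRT), -3.66 (CAST/SPRT), -10.4 (STUS/B6) and -9.98 points (STUS/Hum). The distal differences were -4.71, -15.6, 1.70, -9.55 and -6.68 points in the same order. Only in Hum/SPRT was the distal difference the more negative one. The median fraction of reads from B6 was 6.12% distally and 13.8% elsewhere for B6 hotspots of B6/SPRT, and 8.33% and 25% in STUS/B6. For the humanized and castaneus alleles it differed by -1.67 to 1.32 percentage points, and the mean over all 5 libraries was -4.77 ± 7.54 (SD, n = 5; exact permutation p = 0.312, adjusted 0.312).

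**Figure D2:**
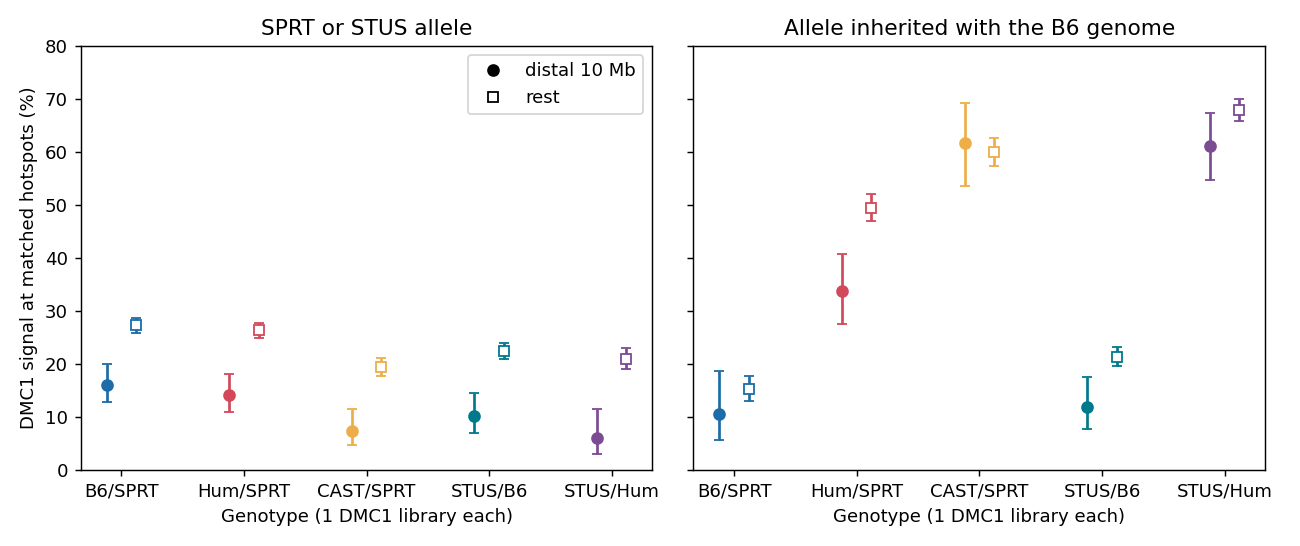
Percent of DMC1 signal at matched hotspots, distal (filled circles) and on the rest of the same chromosomes (open squares), for the SPRT or STUS allele (left) and the allele inherited with the B6 genome (right). Bars are 95% intervals for counting error, and each genotype is 1 library. All 5 filled circles on the left, 6.01 to 16.1%, lie below their squares, and on the right CAST/SPRT is the library whose circle lies above its square, with overlapping bars.

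A B6 fraction was missing for 17.01% of distal and 19.7% of other SPRT hotspots in B6/SPRT, 19.3 and 20.5% in Hum/SPRT, and 12.7 and 18.8% in CAST/SPRT. For STUS hotspots it was missing for 5.65 and 8.57% in STUS/B6 and 5.37 and 8.08% in STUS/Hum. For B6 hotspots it was missing more often, for 44.6 and 37.8% in B6/SPRT, and for 9.34 and 8.47% in STUS/B6. The values were 27.7 and 25.9% for humanized hotspots in Hum/SPRT, 9.32 and 9.84% in STUS/Hum, and 31.3 and 29.1% for castaneus hotspots. SNP-carrying H3K4me3 reads per unit of ChIP coverage at SPRT hotspots were 1.74 distally and 1.69 elsewhere in B6/SPRT, 1.73 and 1.68 in Hum/SPRT and 1.78 and 1.74 in CAST/SPRT. With missing fractions counted as unmatched, the mean difference of the SPRT or STUS allele was -10.7 points in place of -12.5. For the allele inherited with the B6 genome it was -6.73 in place of -6.98. The part of the SNP-carrying reads in the matched shares was not tested. The lower share of the SPRT or STUS allele was present at all strengths. With each library split into 3 equal classes of DMC1 signal, the distal value was lower in all 15 combinations of class and library. The gap went from 3.06 points in the weakest class of Hum/SPRT up to 25.8 points in the middle class of STUS/Hum.

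H3K4me3, the mark that precedes the break, had the same direction. At SPRT hotspots, those with 25 to 75% of H3K4me3 reads from B6 held 44.2% of the distal enrichment in B6/SPRT and 53.3% elsewhere, 43.2 and 53.8% in Hum/SPRT, and 26.6 and 42.7% in CAST/SPRT. The difference was negative in 14, 15 and 16 of 17 chromosomes. In the 10 Mb after the first hotspot the share was 47.2, 45.8 and 38.6%, between the distal value and that of the rest. The median fraction of H3K4me3 reads from B6 was 74.6% distally and 68.6% elsewhere, 75.8 and 68.4%, and 92.1 and 81.3%. For the alleles on the B6 side the share was 55.4 and 59.3% (B6), 70.4 and 73.4% (humanized) and 81.6 and 78.4% (castaneus), the castaneus value being the higher one distally. With 3 pooled tables no test was made.

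Enrichment itself was similar. The median over all distal hotspots was 0.965 times that of the rest in B6/SPRT (0.928 to 1.00004) and 1.13 times in Hum/SPRT (1.08 to 1.17). In CAST/SPRT it was 1.05 times (0.982 to 1.13). These intervals take the median of the rest as fixed. The median log2 ratio of DMC1 signal to H3K4me3 enrichment differed by 0.08 (B6/SPRT), -0.20 (Hum/SPRT) and -0.24 (CAST/SPRT), without a common direction. By allele it was 3.71 distally and 3.75 elsewhere for the SPRT allele in B6/SPRT, 3.40 and 3.64 in Hum/SPRT, and 0.00 and 0.27 in CAST/SPRT. For the B6 allele it was 3.30 and 2.97, higher distally in each of 3 classes of H3K4me3 enrichment (by 0.48, 0.33 and 0.14 from the weakest to the strongest). The SPRT allele was lower distally in all 3 classes in Hum/SPRT and CAST/SPRT, and in B6/SPRT only in the strongest (-0.14). The humanized and castaneus alleles were higher distally in the weakest class and lower in the others.

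The same positions could be followed between libraries. The SPRT allele had 387 distal positions called in all 3 SPRT hybrids, and at 320 of them each library gave a B6 fraction. Of these, 37, 34 and 37 were matched in B6/SPRT, Hum/SPRT and CAST/SPRT, and 30 were matched in all 3 (9.38%). Elsewhere 613 of 3232 were matched in all 3 (18.97%). The B6 fractions of B6/SPRT and Hum/SPRT were within 10 points of each other at 96.7% of the distal positions and 95.0% of the others. At STUS positions called in both STUS hybrids, 18 of 219 distal ones were matched in both (8.22%), against 724 of 2877 elsewhere (25.2%). Positions of the humanized allele repeated less across the pair of hybrids that carry it, where the other genome differs: fractions were within 10 points at 38.8% of 209 distal positions and 37.6% of the others. A hotspot of any other library lay within 500 bp of 67.1, 81.2, 62.8, 44.5 and 73.4% of distal hotspots in B6/SPRT, Hum/SPRT, CAST/SPRT, STUS/B6 and STUS/Hum, and of 72.2, 84.4, 66.1, 44.9 and 72.4% of the others.

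The values varied between chromosomes. The mean ratio of distal to other density over the 5 libraries was highest on chromosome 1, at 1.45, and lowest on chromosome 2, at 0.918, where B6/SPRT and STUS/B6 were above 1 and the other libraries below. Median signal was highest relative to the rest on chromosome 7, at 1.11 times, and lowest on chromosome 14, at 0.849 times. The first value rests on STUS/B6, with a ratio of 1.74 there and 0.896 to 1.12 in the other libraries, whose mean was 0.996. On chromosome 14 the ratio was 0.569 in STUS/B6 and 0.752 to 1.08 in the others, with a mean of 0.939. The matched share of the SPRT or STUS allele had a mean difference below 0 on all 17 chromosomes and was lower in all 5 libraries on 14 of them. The exceptions were chromosomes 3, 7 and 16. On chromosomes 7 and 16 it was higher in the 3 SPRT hybrids and lower in both STUS hybrids.

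**Figure D3:**
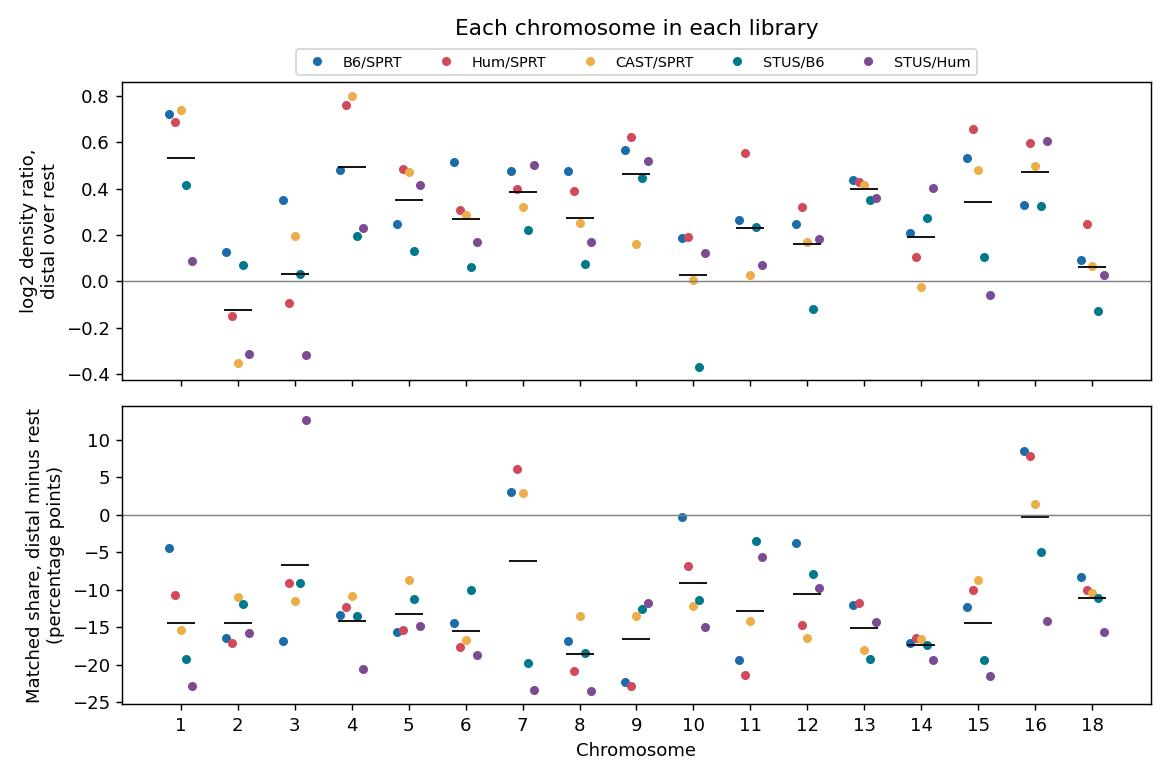
Distal against other hotspots on each chromosome. Top, log2 ratio of hotspots per Mb. Bottom, difference in the matched share of DMC1 signal of SPRT or STUS hotspots in percentage points. Points are the 5 libraries and black dashes their mean. The lower panel has 14 chromosomes with all 5 points below 0.

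Single hotspots show the scale of these values. The strongest distal hotspot of the SPRT allele in B6/SPRT (chr13:118748585) lay inside Fgf10, which encodes a fibroblast growth factor, with a DMC1 signal of 671 and 99.7% of reads from B6. The same position had a signal of 376 in Hum/SPRT and 98.5 in CAST/SPRT, with 99.3 and 99.1% from B6, and H3K4me3 reads from B6 at 92.4, 94.3 and 96.3%. All 3 libraries placed it almost entirely on the B6 chromosome.

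The distal SPRT position with the highest mean percentile of signal over the 3 hybrids (chr14:118452305) was 30.4 kb outside Abcc4, a gene for an ABC transporter. Its signal was 521, 405 and 126 in B6/SPRT, Hum/SPRT and CAST/SPRT, with 98.7, 98.7 and 99.2% from B6. The next 4 such positions were on chromosome 13 (29.8 kb from Gm33849), chromosome 14 (3.95 kb from Dock9, a guanine nucleotide exchange factor), chromosome 4 (0.937 kb from C1qtnf12, only 0.261 Mb from the last hotspot) and in Fgf10. In every library each of the 5 had at least 98.3% of reads from B6.

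The strongest distal STUS hotspot was the same place in both STUS hybrids, 9.69 kb from 2310061N02Rik on chromosome 16. Its signal was 986 with 99.6% of reads from B6 in STUS/B6, and 369 with 99.3% in STUS/Hum. The strongest distal B6 hotspot of STUS/B6 (chr13:112458716, 5.35 kb from Il6st, the gp130 signal transducer) had a signal of 748 and 1.05% of reads from B6, so nearly all reads came from the STUS chromosome. The distal B6 position with the highest mean percentile in B6/SPRT and STUS/B6 was 37.5 kb from Rpl10a-ps3 on chromosome 15. It had signals of 569 and 719 and 0.293% of reads from B6 in STUS/B6. The B6 position inside Baiap2 on chromosome 11 had a signal of 499 in B6/SPRT and 687 in STUS/B6, with 1.27% of reads from B6 in the latter. In B6/SPRT the strongest distal B6 hotspot had a signal of 706 and 5.26% of H3K4me3 reads from B6. It lay 93.8 kb from Isl1, a LIM-homeodomain gene on chromosome 13.

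The named humanized hotspots varied in their B6 fraction, which was not listed for several of them in Hum/SPRT. The strongest distal one in STUS/Hum, inside Arl15 on chromosome 13, had a signal of 298 and 67.7% of reads from B6. The position inside Sox5 on chromosome 6, a transcription factor gene, had a signal of 198 in Hum/SPRT and 203 in STUS/Hum, with 77.0% from B6 in STUS/Hum and 56.8% of H3K4me3 reads from B6 in Hum/SPRT. The position 6.08 kb from Gm2988 on chromosome 3 had signals of 271 and 155 and 30.8% of reads from B6 in STUS/Hum, and that in Gm31621 on chromosome 18 had 213 and 193 with 49.7 and 39.0%. The strongest distal humanized hotspot of Hum/SPRT, inside St6galnac3 on chromosome 3, had 4.25% from B6 at a signal of 288. The strongest distal castaneus hotspot, 84.2 kb from Mrps30 on chromosome 13, had a signal of 170.

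The last 2 Mb of chromosomes 4, 9 and 13 were examined apart after their values had been seen. They held 99 hotspots in B6/SPRT (16.5 per Mb), 94 in Hum/SPRT (15.7), 53 in CAST/SPRT (8.83), 89 in STUS/B6 (14.8) and 40 in STUS/Hum (6.67). The last 2 Mb of the other 14 chromosomes held 8.36, 6.25, 3.54, 4.82 and 2.11 per Mb. The ratios were thus 1.97, 2.51, 2.50, 3.08 and 3.16. In the same order, the 17 chromosomes outside the distal 10 Mb held 7.51, 6.34, 3.93, 7.12 and 4.11 per Mb. The other 14 ends were denser than that rest only in B6/SPRT. The ends of chromosomes 4, 9 and 13 carried 42.7 to 49.2% of all DMC1 signal in the last 2 Mb of the 17 chromosomes. Hotspots with no assigned allele made up 45.5% of them in B6/SPRT, 23.4% in Hum/SPRT, 18.9% in CAST/SPRT, 48.3% in STUS/B6 and 25% in STUS/Hum, against 29.1, 8, 7.07, 9.63 and 22.0% at the other ends. In STUS/B6 this was 43 of 89 hotspots against 13 of 135. Chromosome 13 stood out less by number. It ranked 7 of 17 in B6/SPRT with 19 hotspots, 5 in Hum/SPRT with 18, and 3 in the other libraries. Chromosome 11 was ahead of it in B6/SPRT (26) and Hum/SPRT (30). In CAST/SPRT chromosome 9 ranked 4 with 11 hotspots, behind chromosomes 11 (14) and 13 (12). As the 3 ends were picked with these values known, the figures are a description. The distal density was also computed with their hotspots taken out but their 6 Mb still counted as length, which makes it too low. The log2 density ratio was then 0.30, 0.31, 0.20, 0.07 and 0.14 in B6/SPRT, Hum/SPRT, CAST/SPRT, STUS/B6 and STUS/Hum, above 0 in all 5. Without these hotspots the matched share difference of the SPRT or STUS allele was -11.1 to -14.8 percentage points.

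**Figure D4:**
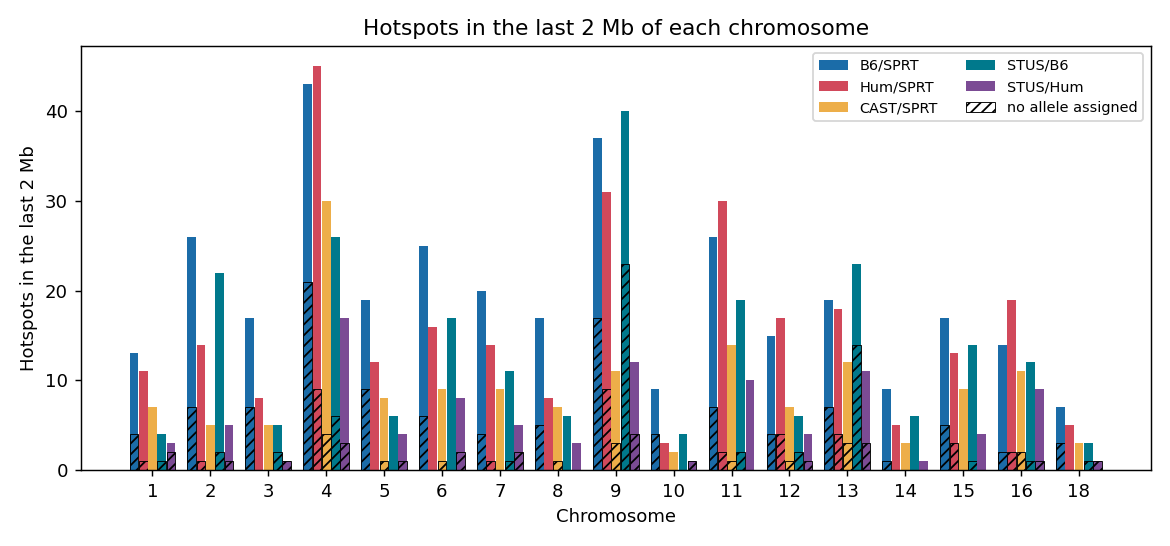
Number of hotspots in the last 2 Mb of each chromosome (vertical axis, from 0) in the 5 libraries, with hotspots that had no assigned allele hatched. Chromosome 4 reaches 45 in Hum/SPRT, chromosome 9 reaches 40 in STUS/B6 and chromosome 4 has 43 in B6/SPRT, the 3 highest bars of the plot.

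Hotspots lay within annotated genes about as often distally as elsewhere, at 61.0 to 63.3% against 59.3 to 62.2%. Centers inside a promoter window (250 bases before to 50 after a gene start) were few: 11 of 1670 in B6/SPRT (0.659%, 0.368 to 1.18%) against 0.224% elsewhere (0.161 to 0.312%), 10 of 1356 in STUS/B6 (0.737%, 0.401 to 1.35%) against 0.318% (0.239 to 0.422%), 4 in Hum/SPRT (0.279% against 0.190%), 4 in CAST/SPRT (0.489% against 0.282%) and 1 in STUS/Hum (0.123% against 0.269%). The intervals of distal and other shares overlapped in all libraries but B6/SPRT, and the STUS/Hum share was the lower one distally. In B6/SPRT 8 of the 11, and in STUS/B6 6 of the 10, had no assigned allele or the mark KO. The meaning of that mark is not given in the sources used here. Over all distal hotspots, 31.6% in B6/SPRT and 16.4% in STUS/B6 had no assigned allele, and 0.419% and 0.590% had the mark KO. For promoter windows elsewhere these shares are not given. All 14 lay on chromosomes 4, 9 or 13. They were at the starts of Cdk11b, a cyclin-dependent kinase gene, Sacm1l, a phosphoinositide phosphatase gene, Hmgcs1, an enzyme gene of cholesterol synthesis, and others. H3K4me3 enrichment at the 8 of B6/SPRT ranged from 2.88 at Car6, a carbonic anhydrase gene, through 19.01 at Gm42365 to 75.7 at Tmem42, beside a median of 6.08 over its distal hotspots. It was 54.5 at Cdk11b and 59.0 at Sacm1l, with DMC1 signals of 8.14 and 22.3. Active promoters carry H3K4me3 independently of PRDM9.

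In 5 promoter windows a distal center was called in 2 libraries. Their reference sequences show where the centers fell, and capitals mark the 11 bases around each center (fewer at the edge of a window). They are RefSeq sequences of GRCm38.p6, 5′ to 3′ on the strand of the gene.
Gm42365, chr4:155962494-155962793, plus strand: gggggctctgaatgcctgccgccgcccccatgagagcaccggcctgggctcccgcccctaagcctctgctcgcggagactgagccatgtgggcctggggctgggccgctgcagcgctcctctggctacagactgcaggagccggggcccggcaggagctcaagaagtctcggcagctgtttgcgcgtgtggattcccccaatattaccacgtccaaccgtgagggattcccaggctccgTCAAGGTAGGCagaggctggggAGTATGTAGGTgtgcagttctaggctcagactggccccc
Tmem42, chr9:123021076-123021375, plus strand: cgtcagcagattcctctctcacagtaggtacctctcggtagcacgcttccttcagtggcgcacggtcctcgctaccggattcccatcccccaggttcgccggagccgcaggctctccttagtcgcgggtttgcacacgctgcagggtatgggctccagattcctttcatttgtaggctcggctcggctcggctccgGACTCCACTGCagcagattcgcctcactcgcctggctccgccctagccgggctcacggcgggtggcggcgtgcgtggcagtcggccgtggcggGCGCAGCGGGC
Lmntd1, chr6:145434876-145435175, minus strand: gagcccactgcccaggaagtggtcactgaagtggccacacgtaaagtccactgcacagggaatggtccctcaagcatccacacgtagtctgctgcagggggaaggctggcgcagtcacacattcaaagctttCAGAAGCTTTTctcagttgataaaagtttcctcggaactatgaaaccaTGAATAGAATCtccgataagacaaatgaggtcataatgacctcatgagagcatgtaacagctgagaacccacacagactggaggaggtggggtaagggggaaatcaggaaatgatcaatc
Gm36905, chr16:91995971-91996270, minus strand: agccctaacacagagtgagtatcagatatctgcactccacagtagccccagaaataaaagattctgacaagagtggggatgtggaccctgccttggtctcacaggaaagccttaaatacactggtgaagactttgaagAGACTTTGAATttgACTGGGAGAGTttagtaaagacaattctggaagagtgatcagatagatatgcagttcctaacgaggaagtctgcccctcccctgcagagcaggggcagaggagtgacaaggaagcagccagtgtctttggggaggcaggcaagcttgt
Gm30695, chr16:93531336-93531635, minus strand: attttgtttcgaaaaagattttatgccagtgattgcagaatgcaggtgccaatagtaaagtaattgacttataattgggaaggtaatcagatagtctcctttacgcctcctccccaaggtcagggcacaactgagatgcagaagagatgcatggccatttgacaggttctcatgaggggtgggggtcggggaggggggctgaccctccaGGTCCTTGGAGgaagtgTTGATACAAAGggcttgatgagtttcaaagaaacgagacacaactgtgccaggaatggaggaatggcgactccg
The windows of Gm42365 and Tmem42 had no assigned allele in either library and a GC content of 66 and 66.7%, above the median of 52.7% over all 32851 promoter windows. The other windows belonged to the SPRT allele, with 48.3 to 49% GC, below that median. At Gm42365 the DMC1 signal was 42.6 in B6/SPRT and 27.1 in STUS/B6, with 72.5 and 70% of reads from B6, and at Tmem42 it was 8.03 and 15.5. At Lmntd1 it was 125 in B6/SPRT and 17.3 in CAST/SPRT, with 15.1% of reads from B6 in B6/SPRT and 37.4 and 41.5% of H3K4me3 reads from B6. At Gm36905 it was 94.6 in B6/SPRT and 41.7 in Hum/SPRT, with 88.3 and 93.7% from B6, and at Gm30695, where no B6 fraction was listed, it was 149 and 83.4. In B6/SPRT the reads at Lmntd1 thus came mostly from the SPRT chromosome, and those at Gm36905 from B6.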

How the data were processed

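DMC1 SSDS was available as 1 library for each of 5 genotypes, and H3K4me3 ChIP-seq with input for 3 of them, 19 samples in all. The authors called hotspots, attributed hotspots to PRDM9 alleles from hotspots of other mice, assigned reads to homologs by SNPs, and deposited 1 table per genotype. The submitters' processing notes name BWA and mm10. The deposited DMC1 signal is the caller's value, with its scaling to depth not stated. The deposited fraction of DMC1 reads from B6 comes without read numbers and has an unknown depth. The authors' H3K4me3 columns are counts of ChIP, input and SNP-carrying reads, a ratio of enrichment (formula not stated) and a fraction from B6, all taken as pooled over samples. A further 13 columns of p-values and share marks were not used. Tables were matched to genotypes by their names and the alleles they list, checked against the hotspot totals the study gives.

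Measures were computed within a library and compared between the distal 10 Mb and the rest (Python 3.11.15, numpy 2.4.6, pandas 2.3.3, scipy 1.17.1, matplotlib 3.10.9), with exact sign-flip permutation over libraries and Benjamini-Hochberg adjustment. The rest was measured from the first hotspot. Intervals are 95%: Wilson for shares, exact for density ratios and order-statistic for medians. For a ratio of medians the interval is that of the distal median, with the median of the rest taken as fixed. Scripts were tested on simulated data. Gene places are from RefSeq GRCm38.p6. GC content and motifs around hotspots were not computed here. Members and lists were chosen with earlier results of these data known. Named hotspots were the strongest distal hotspot per allele and genotype and the shared positions with the highest mean percentile of signal: 5 for SPRT, 3 for B6 and 3 for the humanized allele. Alternatives were windows of 5 and 20 Mb, other limits, weights and chromosomes, and each library left out.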

Additional observations from a re-analysis of the deposited data

Results flagged for a closer look

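Among the alleles inherited with the B6 genome, the castaneus array had a distal minus other matched share of 1.70 percentage points in CAST/SPRT, while the 4 other libraries were below 0. The difference between genotypes was not tested, since each has 1 library. The sign was not stable. The CAST/SPRT value was -3.36 points with a 20 Mb window and -3.16 with missing fractions counted as unmatched. It was 0.16 with chromosomes 17 and 19 added. Larger values were 7.54 points with a 5 Mb window, 7.25 as the median over chromosomes and 5.30 among the 5000 strongest hotspots.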

How the results depend on the processing

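Values are distal minus other, as means over the 5 libraries unless a genotype is named, and the cause of each shift was not tested. Of 133 recomputed means over libraries, H3K4me3 and sharing values, 131 kept their direction. The exceptions were the median B6 fraction of the allele inherited with the B6 genome, 0.21 percentage points among the 5000 strongest hotspots, and sharing in STUS/B6, 0.39 points with centers within 200 bp. Among the strongest hotspots the SPRT or STUS fraction differed by 1.53. The 133 include means with 1 library left out, which could not change direction where all 5 libraries had the same sign. Of 335 recomputed values of single libraries 319 kept their direction. The matched share of the SPRT or STUS allele was -10.5 points with a 20 Mb window, -6.70 with limits of 40 to 60% and -10.7 with missing fractions counted as unmatched. DMC1 per H3K4me3 in Hum/SPRT was -0.12 (log2) with a 5 Mb window. With 5 Mb, the STUS/Hum log2 density ratio was -0.030 and its humanized matched share 1.45 points. Leaving out each library in turn gave 0.26 to 0.33 (log2) for density, -0.08 to -0.03 (log2) for signal, -5.51 to -4.33 points for the share of the non-B6 parent's allele, -12.9 to -11.9 and -9.14 to -4.81 points for the matched shares of the SPRT or STUS allele and the allele inherited with the B6 genome, and 4.56 to 7.80 and -6.29 to -1.80 points for their B6 fractions. Leaving out the hotspots of the last 2 Mb of chromosomes 4, 9 and 13, and splitting by DMC1 signal, were chosen after seeing the data. No paired analysis was possible because no replicate number pairs samples: each genotype has 1 DMC1 library and the numbered H3K4me3 samples share 1 pooled column. The sign-flip test pairs the distal and other hotspots of a library. Read numbers behind the B6 fractions are unknown, which limits every matched share.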
